A study of Rattus norvegicus with 9 samples.

Results

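In neonatal rat heart muscle cells, 2374 genes stood apart from the control libraries in both of 2 knockdown experiments, and these genes are described here. A gene was taken when its mean level over all 9 libraries was at least 5 FPKM (mapped fragments scaled to transcript length and library size) and its 6 knockdown values all lay above, or all lay below, the 3 control values. Of the 14636 genes in the table, 8351 reached that level and 2374 of them, 28.4%, met the rule. There were 1138 with higher values after both knockdowns (13.6%) and 1236 with lower values (14.8%). The cells were primary cardiac myocytes of 2-day-old Sprague Dawley rats, freed with a dissociation kit, enriched on a Percoll gradient and kept in medium with 15% serum. After 16 h they were transfected with siRNA and after a further 48 h their RNA was extracted, so that all 9 libraries share the transfection. There were 3 groups of 3 libraries: universal negative control siRNA, siRNA against Llgl1 together with Llgl2 (Llgl1/2 siRNA), and siRNA against Yap. The labels give 2 siRNAs per target, each at 25 nM, and since 2 genes were targeted in the Llgl1/2 group its siRNA load may have been higher, so that load and target cannot be told apart. Both knockdowns are read against the same 3 control libraries. Their 2 sets of changes are therefore not independent, and a control library that lies high or low for a gene moves both.

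Llgl1 and Llgl2 are the mammalian relatives of the fly protein lethal giant larvae, which with Scribble and Dlg keeps the basolateral side of a polarized cell distinct from the apical side. YAP is a transcriptional coactivator that works through the TEAD DNA-binding proteins. The Hippo kinases phosphorylate it and hold it out of the nucleus, and in the fly and in mammals it drives growth and division. Around birth, heart muscle cells stop dividing, turn to fatty acids as their main fuel and exchange fetal for adult forms of contractile proteins. Genes of these programmes are grouped below, beside lists for other functions and for cell types.

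The libraries were alike in their FPKM sums and in the number of genes above 0, but not in the number at 5 FPKM or more. That number was 8287 to 8371 in the controls, 8353 to 8424 after Llgl1/2 siRNA and 8069 to 8235 after Yap siRNA. A library summed to between 572884 and 620119 FPKM and had 12703 to 12831 genes above 0. Pearson's r on the log2 scale was 0.994 to 0.996 within groups and 0.977 to 0.988 between them, across genes, which are not independent replicates. The labels do not say that replicates came from separate cultures, so every p-value here reflects the spread among these 9 libraries only, and that spread may be technical. Every library held RNA of other heart cells beside that of myocytes. The summed level of 9 cardiomyocyte markers was 24228 to 27997 FPKM in the controls, 27346 to 30301 after Llgl1/2 siRNA and 31166 to 34020 after Yap siRNA. Against this, 11 endothelial markers summed to 559 to 664, 280.0 to 296 and 403 to 475 FPKM, 11 leukocyte markers to 179 to 225, 123 to 162 and 158 to 209, and 8 fibroblast markers to 319 to 459, 288 to 364 and 359 to 446, in the same order of groups. In bulk RNA, fewer cells of a type and less RNA per cell cannot be told apart.

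The targeted genes were read first. Llgl1 (gene ID 54265) stood at 12.1, 11.9 and 12.4 FPKM in the control libraries, 4.76, 4.65 and 4.75 after Llgl1/2 siRNA and 9.5, 7.14 and 9.88 after Yap siRNA. Llgl2 (gene ID 360661) stood at 13.9, 12.04 and 14.9, then 6.51, 7.33 and 7.62, then 8.11, 8.69 and 12.01 FPKM in the same order. Both genes met the rule, so each was also lower in the knockdown that did not target it, but Llgl2 did not meet it under median-ratio scaling or quantile normalization. For Llgl2 the margin was thin, with 12.01 FPKM in the nearest Yap siRNA library and 12.04 in the nearest control. Yap1 (gene ID 363014), at 55.3, 60.8 and 63.1 FPKM in the controls and 5.9, 4.43 and 6.0 after Yap siRNA, did not meet the rule, because its values after Llgl1/2 siRNA were 46.5, 53.7 and 56.8 and the last of these lies above the lowest control. Between the knockdowns, Llgl1 was higher after Yap than after Llgl1/2 siRNA by 0.77 ± 0.11 (SE; adjusted p = 0.0001) on the log2 scale in limma's test, and Llgl2 by 0.36 ± 0.13 (SE; adjusted p = 0.036). The difference in Llgl2 did not pass with no filter on low values (adjusted p = 0.061 in limma), nor without Llgl1/2 replicate 1 or 2 or Yap replicate 3 (0.065 to 0.16).

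Most of the shared differences were small. The median log2 difference from the control, averaged over both knockdowns, was 0.44 among the higher genes and -0.46 among the lower ones, where all 8351 genes had -0.02. For Llgl1/2 siRNA the medians were 0.40 and -0.38, and for Yap siRNA 0.46 and -0.48. The smaller of a gene's 2 differences was at least 0.5 for 272 higher and 282 lower genes and at least 1 for 30 and 15. The higher genes held 13.0% to 14.2% of the FPKM sum in the controls, 17.5% to 17.8% after Llgl1/2 siRNA and 18.9% to 19.5% after Yap siRNA. The lower genes held 15.9% to 17.1%, then 11.89% to 11.97%, then 10.2% to 10.9%. limma's test of the mean of both knockdowns against the control uses the same values as the rule and adds no support. It passed 1097 of the 1138 and 1191 of the 1236 at an adjusted p of 0.05, where 22.5% of all genes at this level were called higher and 25.2% lower (21.6% and 23.3% of all 10789 tested genes).

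**Figure D1:**
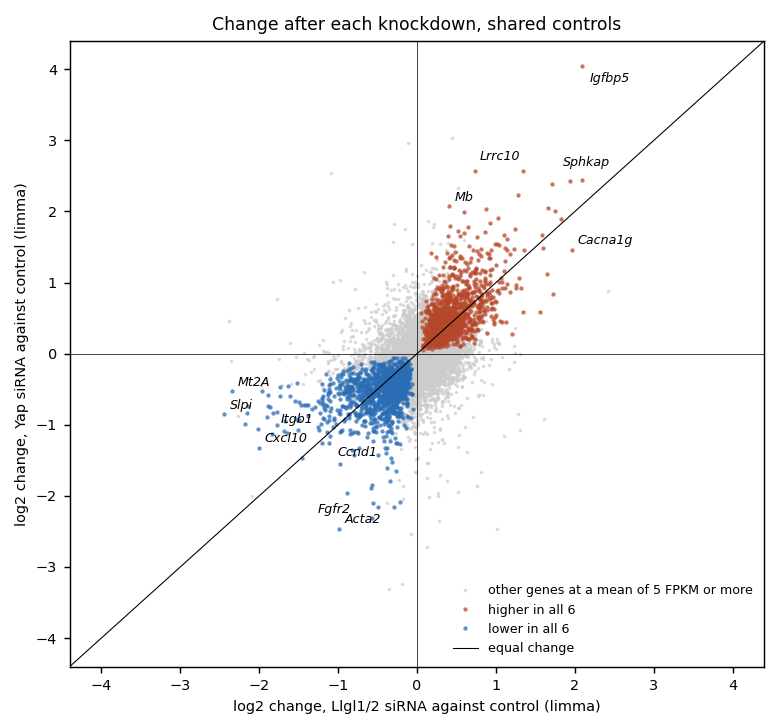
Each point is a gene at a mean of 5 FPKM or more. The x axis gives its log2 difference after Llgl1/2 siRNA and the y axis that after Yap siRNA, both from limma on log2(FPKM + 1) against the same 3 controls; red marks the 1138 genes higher in all 6 knockdown libraries, blue the 1236 lower ones, grey the rest. Most red and blue points lie within 1 of the origin on both axes, and Igfbp5 stands farthest out at 2.09 and 4.04.

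The margin between knockdown and control values was often narrow as well. The nearest knockdown value lay a median of 1.11 times above the nearest control among higher genes and 1.10 times below it among lower ones, and 147 and 151 genes had a margin under 2%. A margin of at least 25% was kept by 260 higher and 213 lower genes. Control library 3 was the control nearest to the knockdowns for 629 genes on the higher side and 809 on the lower side. Without that library 1435 genes would be higher and 1733 lower, although leaving out any library raises such counts because fewer values have to lie apart. At the level limit, the members Sass6, a centriole assembly gene, and Slc39a11, a zinc transporter gene, both had a mean of 5.01 FPKM. Neither met the rule under median-ratio scaling or quantile normalization, and they met it under 6 and 5 of 14 alternatives. Just outside it lay Slamf9 at 4.997 and Cep41 at 4.98 FPKM, whose knockdown values were likewise all below the controls. The Sass6 values were 6.27, 5.79 and 6.97 in the controls, 3.85, 4.23 and 4.48 after Llgl1/2 siRNA and 3.98, 5.72 and 3.84 after Yap siRNA, so that 1 Yap library nearly touched the controls.

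Among the genes higher after both knockdowns, those with the largest smaller difference were led by Igfbp5, which encodes a secreted binding protein of insulin-like growth factors. Igfbp5 stood at 0.54, 1.63 and 1.89 FPKM in the controls, 4.77, 10.98 and 12.1 after Llgl1/2 siRNA and 31.2, 39.4 and 39.4 after Yap siRNA. The groups form a staircase with no overlap, and Yap siRNA exceeded Llgl1/2 siRNA by 1.95 ± 0.33 (SE; adjusted p = 0.0015). Sphkap, an anchoring protein of protein kinase A, went from 4.79, 5.2 and 6.7 to 21.3, 25.1 and 25.9 and to 28.8, 37.7 and 36.6 FPKM. Gpr22, an orphan receptor gene of heart and brain, had 5.76, 4.97 and 5.8, then 17.9, 23.2 and 25.8, then 21.4, 24.96 and 23.01 FPKM, and here the 2 knockdowns overlapped. Efnb3, which encodes the membrane ligand ephrin-B3, had 10.2, 9.45 and 12.8, then 38.9, 38.8 and 37.6, then 46.5, 43.9 and 48.5.

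The same leading group held several genes of cardiac electrical and signalling function. Cacna1g, a T-type calcium channel subunit gene, stood at 12.1, 13.9 and 13.3 FPKM in the controls, 51.99, 55.3 and 54.1 after Llgl1/2 siRNA and 34.1, 35.6 and 44.3 after Yap siRNA, and was higher after Llgl1/2 than after Yap siRNA (Yap minus Llgl1/2, -0.50 ± 0.10 (SE; adjusted p = 0.00085)). Adora1, the adenosine A1 receptor gene, had 5.16, 4.35 and 8.34, then 15.5, 17.1 and 16.0, then 18.9, 14.7 and 19.4 FPKM. Lrrc10, a leucine-rich repeat gene specific to heart muscle, had 20.4, 18.2 and 18.3, then 47.4, 50.5 and 50.3, then 119, 109.8 and 124 FPKM. Its values after Yap siRNA lay above all those after Llgl1/2 siRNA, by 1.23 ± 0.08 (SE; adjusted p = 4.9e-08). The rest of the leading 12 were Cygb (cytoglobin), Ppp1r1a (inhibitor 1 of protein phosphatase 1), Cryl1 (a sugar acid dehydrogenase), LOC688553 and Mir3074, with differences of 1.48 to 2.44 in each knockdown. Mir3074, a microRNA hairpin gene, rests on few reads: its values are multiples of the same small step, 2.67, 1.34 and 0 FPKM or 2, 1 and 0 steps in the controls, against 4 to 7 steps after Llgl1/2 siRNA and 5 to 10 after Yap siRNA. In RefSeq it overlaps Fancc, Aopep and Mir24-1, so reads of those transcripts cannot be told apart from its own.

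Genes lower after both knockdowns were led by inflammatory and interferon-induced genes, with an integrin and a cyclin among them. Ccl4, a chemokine gene, stood at 29.7, 27.2 and 28.3 FPKM in the controls, 9.79, 7.91 and 11.8 after Llgl1/2 siRNA and 13.3, 8.74 and 7.54 after Yap siRNA. Cxcl10, an interferon-induced chemokine gene, had 440.2, 446 and 400.2, then 108, 120.2 and 91.8, then 203, 167 and 147 FPKM. Ccl4 did not differ detectably between the knockdowns (-0.02 ± 0.17 (SE; adjusted p = 0.95)), and Cxcl10 was lower after Llgl1/2 siRNA (Yap minus Llgl1/2, 0.69 ± 0.11 (SE; adjusted p = 0.00031)). Itgb1, the beta-1 integrin subunit that joins cells to matrix, stood at 763, 777 and 737 FPKM in the controls, 349, 347 and 338 after Llgl1/2 siRNA and 337, 349 and 368 after Yap siRNA. Ccnd1, which encodes cyclin D1, had 72.4, 70.6 and 62.7, then 28.4, 31.9 and 34.2, then 31.5, 28.9 and 29.9 FPKM. For Itgb1 and Ccnd1 the 6 knockdown values form a single cluster, with direct differences of 0.03 ± 0.07 (SE; adjusted p = 0.75) and -0.06 ± 0.09 (SE; adjusted p = 0.57). Others of the lowest 12 were Cmpk2, Plscr1 and Oasl, which interferon induces, Lcn2 (lipocalin 2), Hpx (the heme-binding protein hemopexin), Emb (a partner of monocarboxylate transporters) and Csf2 (a myeloid growth factor).

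**Figure D2:**
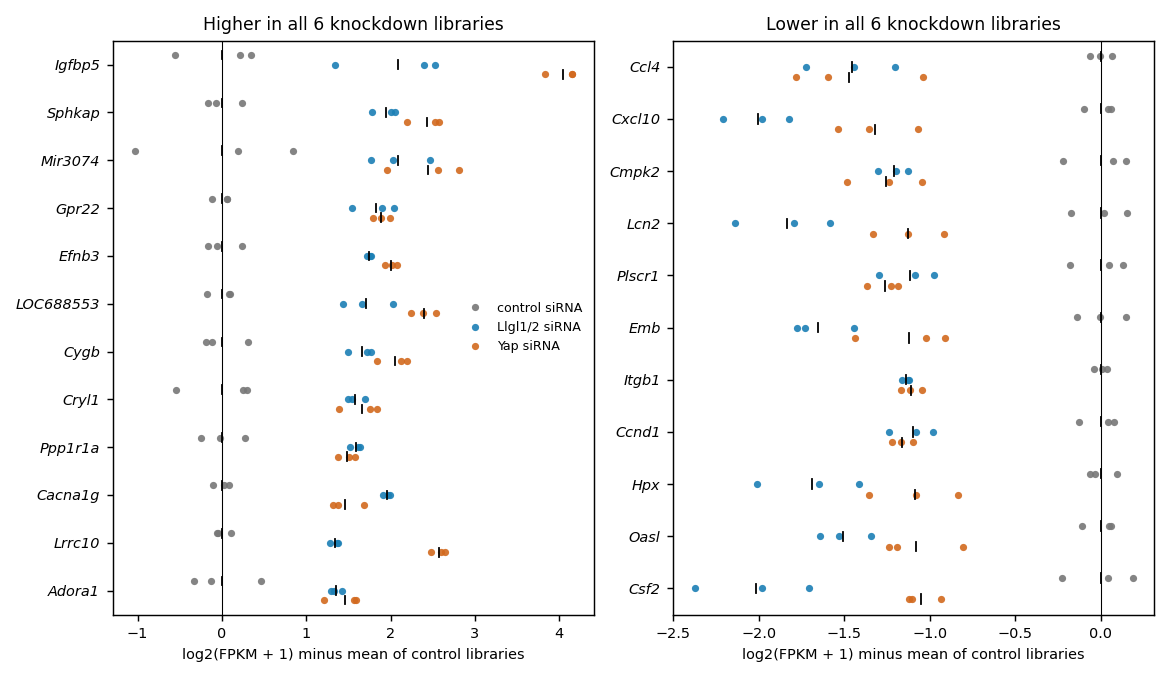
Each row is a gene and each dot a library, placed by log2(FPKM + 1) minus the mean of the control libraries (x axis); grey is control siRNA, blue Llgl1/2 siRNA and orange Yap siRNA, and black ticks are group means of 3. The 12 genes to the left are those higher in all 6 knockdown libraries and the 11 to the right are from the 12 leading lower ones, by the smaller of their 2 differences; Itgb1 and Ccnd1 show knockdown dots lying on each other, and Igfbp5 and Lrrc10 show Yap dots above the Llgl1/2 dots.

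Cell division genes formed the group with the largest share of members. Of 27 G2/M and mitosis genes at this level, 25 were lower in all 6 knockdown libraries and 0 higher, with a median log2 difference of -0.64, beside 14.8% lower and a median of -0.02 among all 8351 genes. Each list below is read beside the same shares, 14.8% lower and 13.6% higher. Cdk1, the kinase that drives entry into mitosis, stood at 75.5, 73.0 and 68.7 FPKM in the controls, 45.0, 39.6 and 38.9 after Llgl1/2 siRNA and 33.6, 31.3 and 34.4 after Yap siRNA. Cks2, a small subunit of that kinase, had 63.98, 57.5 and 55.9, then 35.6, 34.6 and 35.5, then 36.0, 29.9 and 29.9 FPKM. Ccna2 (cyclin A2) and Ttk (a kinase of the spindle checkpoint) differed from the control by -0.77 ± 0.10 and -0.68 ± 0.11 (SE) on the log2 scale after Llgl1/2 siRNA and by -0.72 ± 0.10 and -0.94 ± 0.11 after Yap siRNA. Both exceptions, named after their values were seen, were Top2a and Foxm1, each with 1 Llgl1/2 library inside the control range: Top2a had 27.6, 29.9 and 27.2 in the controls and 24.3, 26.2 and 28.1 FPKM after Llgl1/2 siRNA. The direct test passed 7 of the 25 members (28.0%, beside 41.3% of all lower members and 50.4% of all genes at this level). Each of the 7 was lower after Yap siRNA (30.1% of all genes). Median-ratio scaling gave 5 lower and 2 higher, and replicate number as a block 9 lower and 1 higher.

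These mitotic genes also share letters in their promoters. A pair of DNA elements is known from genes of this phase, CCAAT, which NF-Y binds, and the cell cycle homology region, whose core can read TTTGAA. In windows from 250 bases before to 50 after the start (RefSeq, assembly GRCr8, the first window listed for a gene), both strands were searched for each string, and neither contains the other. CCAAT was in 17 of the 20 lower G2/M members that had a window, or 85.0%, against 37.7% of all 27457 promoters and 38.4% of those of genes at this level. TTTGAA was in 14 of the 20 (70.0%), against 18.1% and 10.8%, and both together were in 13 (65.0%), against 7.25% and 4.59%. Among all members with a window (1952 of 2374), CCAAT was in 36.6% of the higher and 41.9% of the lower ones. A match describes the letters and is not a binding site. The windows of Cdk1 (chr20:19265043-19265342, plus strand) and Cks2 (chr17:13727470-13727769, minus strand) are shown because they hold several copies, in capitals on the strand where they read as CCAAT or TTTGAA or as their reverse complements ATTGG and TTCAAA.
Cdk1: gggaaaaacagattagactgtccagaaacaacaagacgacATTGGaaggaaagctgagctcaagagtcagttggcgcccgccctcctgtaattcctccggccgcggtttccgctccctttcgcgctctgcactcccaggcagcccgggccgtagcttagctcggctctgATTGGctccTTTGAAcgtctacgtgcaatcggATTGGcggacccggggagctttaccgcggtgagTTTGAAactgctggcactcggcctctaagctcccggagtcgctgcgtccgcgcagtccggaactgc
Cks2: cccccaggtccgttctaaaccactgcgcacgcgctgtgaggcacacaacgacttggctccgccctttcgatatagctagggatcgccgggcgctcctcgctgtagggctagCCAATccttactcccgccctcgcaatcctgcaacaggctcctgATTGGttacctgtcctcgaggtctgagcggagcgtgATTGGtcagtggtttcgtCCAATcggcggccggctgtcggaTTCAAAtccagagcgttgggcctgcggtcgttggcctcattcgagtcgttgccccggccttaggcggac

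The G1/S and DNA replication list had 18 of 29 genes lower and 1 higher, with a median of -0.54. Rrm2, the regulated subunit of the enzyme that makes deoxynucleotides, stood at 115, 107 and 99.5 FPKM in the controls, 50.3, 55.5 and 56.1 after Llgl1/2 siRNA and 41.9, 32.5 and 34.2 after Yap siRNA. Mcm6, a subunit of the replicative helicase, had 48.4, 47.01 and 46.0, then 33.3, 30.01 and 32.04, then 21.1, 17.6 and 20.3 FPKM. Both were lower after Yap than after Llgl1/2 siRNA with no overlap (Rrm2 -0.57 ± 0.09 (SE; adjusted p = 0.00027), Mcm6 -0.67 ± 0.08 (SE; adjusted p = 2.3e-05)). Pola1, the catalytic subunit of DNA polymerase alpha, showed no such step, at 4.18, 5.31 and 5.75 and 4.93, 5.78 and 4.86 FPKM below controls of 9.55, 9.29 and 8.94. The member on the other side, named after its value was seen, was Gins2, a helicase partner, at 12.1, 11.6 and 12.5 in the controls, 15.3, 16.9 and 16.3 after Llgl1/2 siRNA and 17.5, 18.8 and 16.9 FPKM after Yap siRNA. Of the 19 members 12 passed the direct test, all lower after Yap siRNA (11 lower and 1 higher under median-ratio scaling), a share of 63.2% where 50.4% of all genes at this level passed in either direction.
Among the 14 lower replication members with a window, TTTGGCGC, a string that E2F proteins can bind, was in 4 (28.6%), against 0.521% of all promoters and 0.97% at this level, and CCAAT in 10 (71.4%). The window of Mcm6 (chr13:42404303-42404602, minus strand) holds both, in capitals as TTTGGCGC and ATTGG.
Mcm6: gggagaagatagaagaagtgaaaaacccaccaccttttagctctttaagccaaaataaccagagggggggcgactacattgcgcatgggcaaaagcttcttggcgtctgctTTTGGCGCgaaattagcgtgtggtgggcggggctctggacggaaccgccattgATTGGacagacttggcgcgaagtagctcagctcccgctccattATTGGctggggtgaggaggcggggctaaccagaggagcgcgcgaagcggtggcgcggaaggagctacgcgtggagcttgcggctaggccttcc

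Genes that restrain the cycle or answer to p53 were mixed. Of 21 CDK inhibitors and p53 targets, 6 were higher (28.6%, beside 13.6% of all genes at this level), 1 lower (4.8%, beside 14.8%) and 14 neither, with a median of 0.09. Tp53inp1, a p53-induced stress gene, stood at 4.74, 6.53 and 7.04 FPKM in the controls, 19.3, 24.1 and 23.7 after Llgl1/2 siRNA and 9.81, 12.4 and 12.7 after Yap siRNA, and Perp, a membrane protein gene that p53 induces, at 54.6, 47.9 and 50.6, 67.7, 76.2 and 68.9 and 116, 129.9 and 113. They lean opposite ways, Tp53inp1 toward Llgl1/2 siRNA (Yap minus Llgl1/2, -0.89 ± 0.14 (SE; adjusted p = 0.00017)) and Perp toward Yap siRNA (0.74 ± 0.08 (SE; adjusted p = 8.3e-06)). Sesn1 (sestrin 1) and Xpc (a DNA damage sensor) differed by 0.58 ± 0.10 and 0.52 ± 0.12 after Llgl1/2 siRNA and by 0.54 ± 0.10 and 0.37 ± 0.12 after Yap siRNA. The inhibitor genes Cdkn1a, Cdkn1b, Cdkn2b and Cdkn2c, named after their values were seen, did not meet the rule in either direction.

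Sterol synthesis and uptake was the other group with few exceptions: 17 of 21 genes were lower, 0 higher, with a median of -0.61. Acat2, an enzyme of acetoacetyl-CoA synthesis, stood at 40.97, 36.9 and 37.5 FPKM in the controls, 18.6, 18.04 and 18.5 after Llgl1/2 siRNA and 22.4, 15.7 and 19.2 after Yap siRNA. Idi1, an isomerase of the isoprenoid branch, had 31.6, 31.5 and 27.5, then 16.9, 14.8 and 17.1, then 13.2, 12.8 and 13.6 FPKM. In Acat2 the knockdowns overlapped, and Idi1 was lower after Yap siRNA without overlap (-0.28 ± 0.09 (SE; adjusted p = 0.017)). That difference in Idi1 did not pass in limma under median-ratio scaling (-0.21, adjusted p = 0.058) or quantile normalization (-0.19, adjusted p = 0.071), nor without Llgl1/2 replicate 1 or 3 (adjusted p = 0.057 and 0.072). The regulators Srebf2 and Insig1 were also lower, and the 4 genes that were neither, all named after their values were seen, were Mvk, Pmvk, Ebp and Sc5d. Pmvk, phosphomevalonate kinase, had 21.8, 23.3 and 22.7 FPKM in the controls, 28.1, 25.3 and 24.5 after Llgl1/2 siRNA and 28.9, 26.5 and 22.99 after Yap siRNA.

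Known targets of YAP and its relative TAZ were lower in part. Of 18 genes at this level 8 were lower, 0 higher and 10 neither, with a median of -0.58 for the mean of both knockdowns. Taken singly, the medians were nearer 0, at -0.24 after Llgl1/2 siRNA and -0.52 after Yap siRNA. Against the control, limma called 10 of the 18 lower and 1 higher after Llgl1/2 siRNA, and 14 lower and 2 higher after Yap siRNA. Shares of all genes are not given here for a single knockdown. For the mean of both, limma called 25.2% of all genes at this level lower and 22.5% higher. Ctgf, a matricellular growth factor gene and a standard YAP target, stood at 731, 756 and 585 FPKM in the controls, 534, 475 and 453 after Llgl1/2 siRNA and 262, 229 and 274 after Yap siRNA. The knockdowns do not overlap, and the direct difference was -0.93 ± 0.10 (SE; adjusted p = 1e-05). Axl, a receptor kinase gene, went the other way between them, with 33.8, 40.8 and 30.9, then 19.5, 17.1 and 18.1, then 28.4, 21.2 and 25.8 FPKM, so that Llgl1/2 siRNA gave the lower values (Yap minus Llgl1/2, 0.44 ± 0.12 (SE; adjusted p = 0.0068)). Fjx1, a secreted kinase gene, had -0.56 ± 0.12 and -0.57 ± 0.12, and Nuak2, a stress kinase gene, -0.40 ± 0.13 and -0.82 ± 0.13. Cyr61, the closest relative of Ctgf and named after its values were seen, missed the rule by a narrow margin, at 230.4, 242 and 186 in the controls and 187, 164 and 167 after Llgl1/2 siRNA. GGAATG, the core that TEAD proteins bind, was in 3 of the 7 lower members with a window (42.9%), against 13.9% of all promoters and 11.1% at this level. The window of Ctgf (chr1:22624565-22624864, minus strand) holds 3 copies, in capitals.
Ctgf: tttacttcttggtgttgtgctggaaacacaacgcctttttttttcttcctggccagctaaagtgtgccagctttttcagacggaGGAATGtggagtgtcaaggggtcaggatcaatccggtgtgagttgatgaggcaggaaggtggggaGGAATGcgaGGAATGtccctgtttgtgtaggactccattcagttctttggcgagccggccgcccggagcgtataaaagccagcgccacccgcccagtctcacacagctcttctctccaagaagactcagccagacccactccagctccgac

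Among the pathway's own parts there was no common direction. Of 16 Hippo components 2 were higher and 3 lower, and of 10 apicobasal polarity genes beside the targets 2 were higher and 0 lower, counts near the shares of all genes. Wwtr1, which encodes TAZ, stood at 41.7, 38.9 and 40.3 FPKM in the controls, 27.4, 31.7 and 35.5 after Llgl1/2 siRNA and 25.1, 25.1 and 28.5 after Yap siRNA. Mob1a, a cofactor of the LATS kinases, had -0.51 ± 0.09 and -0.73 ± 0.09, Nf2, which encodes the upstream regulator merlin, 0.23 ± 0.08 and 0.37 ± 0.08, and Tead3 0.30 ± 0.09 and 0.35 ± 0.09 after Llgl1/2 and Yap siRNA. Frmd6, the third lower component, was named after its values were seen. Pard3 and Stk11, a scaffold and a kinase of cell polarity, differed by 0.18 to 0.29 in each knockdown.

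Actin cytoskeleton genes, many of them driven by SRF and its MRTF cofactors, were lower in 13 of 24 cases and higher in 0, with a median of -0.44. Acta2, smooth muscle alpha-actin, stood at 2361, 2249 and 2449 FPKM in the controls, 1294, 1099.7 and 1179.5 after Llgl1/2 siRNA and 453, 402 and 425 after Yap siRNA. The cytoplasmic actin genes Actb and Actg1 lacked that second step: Actb had 1506, 1500.2 and 1194, then 938, 856 and 905, then 962, 727 and 969.6 FPKM, and its direct difference was -0.03 ± 0.12 (SE; adjusted p = 0.83). Tagln, the smooth muscle protein transgelin, had -0.42 ± 0.12 and -1.23 ± 0.12 after Llgl1/2 and Yap siRNA. Acta2 and Tagln are also smooth muscle markers, whose 9 genes summed to 3672 to 3790 FPKM in the controls, 2405 to 2882 after Llgl1/2 siRNA and 1462 to 1537 after Yap siRNA. Acta2 itself makes up most of that sum in the controls. Of the 6 markers at the level of the rule, Acta2 and Tagln were lower, Des was higher, and Cnn1, Pdgfrb and Cspg4 were neither, with medians of 0.05 after Llgl1/2 siRNA, -0.36 after Yap siRNA and -0.08 for both. Des did not meet the rule under quantile normalization. The part of those cells in these differences was not tested.

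Extracellular matrix genes were lower in 7 of 24 cases (29.2%, beside 14.8% of all genes at this level) and higher in 1 (4.2%, beside 13.6%), with a median of -0.19. Thbs1, a matricellular protein gene, stood at 372, 436 and 326 FPKM in the controls, 194, 191 and 195 after Llgl1/2 siRNA and 173, 176 and 183 after Yap siRNA. Lox (collagen cross-linking), Fn1 (fibronectin) and Col5a1 (type V collagen) had -1.23 ± 0.19, -0.43 ± 0.08 and -1.15 ± 0.09 after Llgl1/2 siRNA and -0.83 ± 0.19, -0.74 ± 0.08 and -0.29 ± 0.09 after Yap siRNA. Col5a1 was thus nearer the controls after Yap siRNA (0.86 ± 0.09 (SE; adjusted p = 7.3e-06)) and Fn1 farther from them (-0.32 ± 0.08 (SE; adjusted p = 0.0038)). The matrix gene that was higher, Sparc, had 1576, 1631 and 1811 in the controls, 1904, 1882 and 1856 after Llgl1/2 siRNA and 2396, 2538 and 2339 FPKM after Yap siRNA, and was named after its values were seen. In the TGF-beta and BMP list 5 of 26 were lower (19.2%, beside 14.8% of all genes at this level) and 1 higher (3.8%, beside 13.6%). Tgfb3, a ligand, had 80.5, 79.4 and 78.6, then 57.8, 49.95 and 51.3, then 20.9, 16.98 and 24.7 FPKM, and went lower after Yap siRNA (-1.32 ± 0.11 (SE; adjusted p = 7.1e-07)). Bmp6, a ligand, differed by -0.84 ± 0.11 and -0.48 ± 0.11, and Grem1, a secreted BMP antagonist, by 0.56 ± 0.11 and 0.67 ± 0.11.

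**Figure D3:**
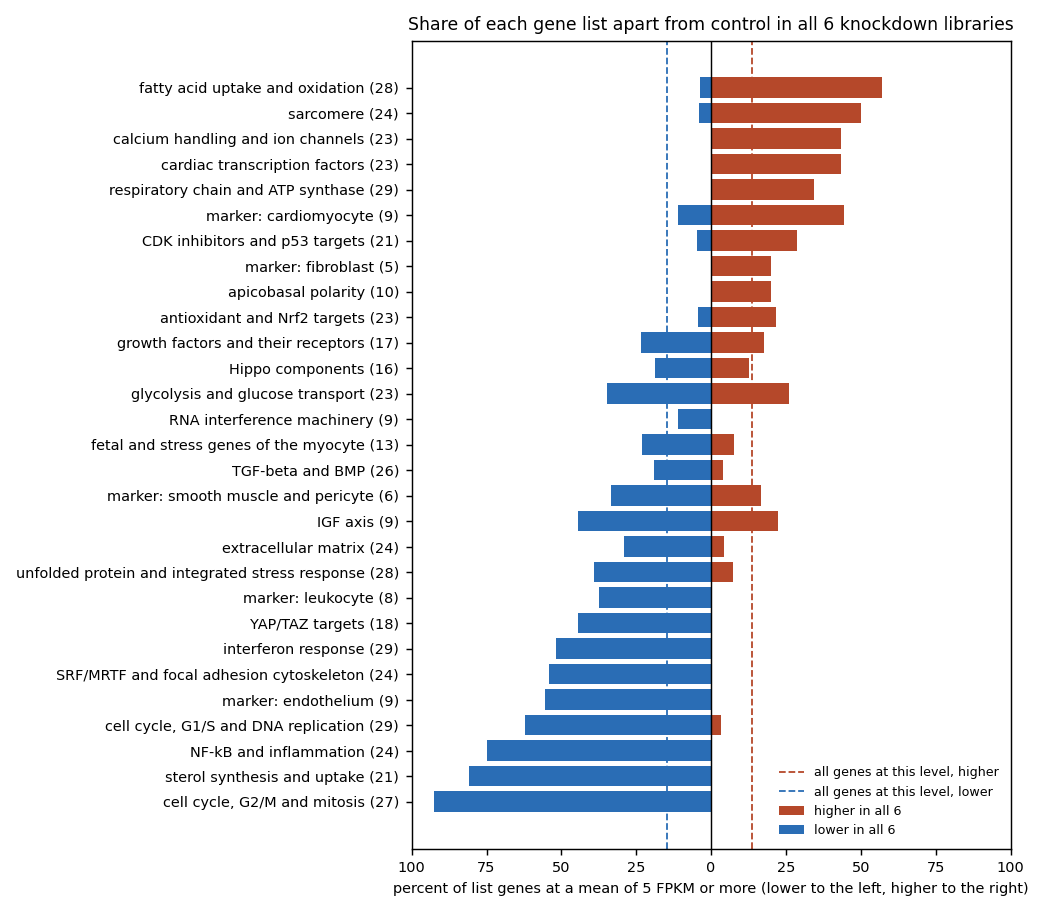
Each row is a gene list with its number of genes at a mean of 5 FPKM or more in parentheses. Blue bars to the left give the percent of those genes lower in all 6 knockdown libraries and red bars to the right the percent higher; dashed lines mark 14.8% and 13.6%, the shares among all 8351 genes. G2/M and sterol genes stand out to the left (25 of 27 and 17 of 21), and fatty acid and sarcomere genes to the right (16 of 28 and 12 of 24).

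Inflammatory genes under NF-kB control were lower in 18 of 24 cases and higher in 0, with a median of -0.95, the farthest from 0 of the lists counted. Ptgs2, the inducible prostaglandin synthase, stood at 22.1, 25.1 and 20.8 FPKM in the controls, 10.01, 8.56 and 11.1 after Llgl1/2 siRNA and 10.7, 12.9 and 11.9 after Yap siRNA. Nos2, the inducible nitric oxide synthase, had 12.5, 13.6 and 11.5, then 2.09, 2.27 and 1.74, then 6.55, 7.51 and 5.73 FPKM. Csf2 had 31.1, 28.1 and 23.1, then 6.16, 4.45 and 7.66, then 13.8, 12.1 and 11.96, and Lcn2 447, 407 and 355, then 133, 115 and 90.2, then 212, 159 and 183. In Nos2, Csf2 and Lcn2 the Yap libraries lie between the other groups without touching them. The direct test passed 16 of the 18 members, 88.9% beside 50.4% of all genes at this level, all of them higher after Yap than after Llgl1/2 siRNA (median 0.69; 20.2% of all genes were higher), and median-ratio scaling passed 18 in that direction. Of the 6 genes that met neither side of the rule, Ccl20, named after its values were seen, had 8.42, 8.74 and 6.75 FPKM in the controls, 28.02, 26.8 and 23.8 after Llgl1/2 siRNA and 6.15, 2.72 and 2.9 after Yap siRNA, above the controls in the first and below in the second.

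The interferon response list had 15 of 29 genes lower and 0 higher, with a median of -0.41. Mx1, an antiviral GTPase, stood at 31.9, 36.1 and 28.9 FPKM in the controls, 15.6, 13.4 and 10.3 after Llgl1/2 siRNA and 18.5, 16.7 and 11.2 after Yap siRNA. Gbp2, a guanylate-binding protein gene, had 146, 163 and 138, then 44.6, 52.1 and 41.4, then 90.1, 83.2 and 60.5 FPKM, and Oasl, a relative of the antiviral oligoadenylate synthases, 98.01, 97.2 and 87.1, then 31.8, 36.4 and 29.5, then 53.4, 40.5 and 39.3. Gbp2 and Oasl were lower after Llgl1/2 siRNA without overlap (0.73 ± 0.13 (SE; adjusted p = 0.00063) and 0.43 ± 0.11 (SE; adjusted p = 0.0062)), and for Mx1 the knockdowns overlapped. Of the 15 members 10 passed the direct test (66.7%, beside 50.4% of all genes), all higher after Yap siRNA (20.2% of all genes), 10 also under median-ratio scaling. All groups, the controls included, had received siRNA. Of 9 genes of the RNA interference machinery 1, Xpo5, the exporter of microRNA precursors, was lower (-0.39 ± 0.08 and -0.58 ± 0.08). That share, 11.1%, was near the 14.8% of all genes at this level.

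Some markers of blood vessels and leukocytes were also lower. Of 9 endothelial markers 5 were lower (55.6%, beside 14.8% of all genes at this level), 0 higher and 4 neither, with a median of -0.69. That median was -0.98 after Llgl1/2 siRNA and -0.29 after Yap siRNA, where limma called 5 of the 9 lower and 1 higher. The matching share of all genes is not given for a single knockdown. Of 8 leukocyte markers 3 were lower (37.5%, beside 14.8%), 0 higher and 5 neither, with a median of -0.42. The summed leukocyte level given above overlapped the controls after Yap siRNA. Eng, a TGF-beta coreceptor of endothelium, stood at 294, 295 and 247 FPKM in the controls, 113, 108 and 109 after Llgl1/2 siRNA and 174, 137 and 177 after Yap siRNA. Cdh5, the vascular cadherin, had 90.2, 103 and 84.8, then 42.1, 42.1 and 42.8, then 76.99, 75.4 and 63.2 FPKM. The Yap libraries lie between the other groups for both genes (0.55 ± 0.10 (SE; adjusted p = 0.00049) and 0.75 ± 0.09 (SE; adjusted p = 1.9e-05)), the order seen for Nos2 and Csf2. Pecam1 and Esam, adhesion molecules of endothelium, had -0.98 ± 0.10 and -0.86 ± 0.13 after Llgl1/2 siRNA and -0.57 ± 0.10 and -0.54 ± 0.13 after Yap siRNA. Fcgr2b, Cd14 and C1qb, all of macrophages, had -1.02 ± 0.14, -1.19 ± 0.15 and -0.80 ± 0.16, then -0.80 ± 0.14, -0.72 ± 0.15 and -0.69 ± 0.16. The 5 leukocyte markers that were neither, named after their values were seen, were Cd68, Csf1r, Adgre1, Lyz2 and C1qa. Of the 8, limma called 5 lower and 0 higher after Llgl1/2 siRNA, and 4 lower and 1 higher after Yap siRNA, again without a share of all genes. None of the markers of either list was at 0 in a whole group. The part of vessel cells and leukocytes in the inflammatory, interferon and cell cycle differences was not tested.

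Growth factor genes went both ways. In the IGF axis 2 of 9 genes were higher and 4 lower, where 13.6% and 14.8% of all genes at this level were. Igf1r, the receptor for IGFs, stood at 11.2, 13.4 and 12.4 FPKM in the controls, 6.96, 9.27 and 8.49 after Llgl1/2 siRNA and 6.41, 6.18 and 7.58 after Yap siRNA, and Igf2, a fetal ligand, at 16.5, 17.03 and 14.4, 8.29, 8.13 and 8.93 and 13.2, 11.7 and 11.6. H19, the imprinted noncoding RNA gene next to Igf2 on chromosome 1 and named after its values were seen, had 33.3, 39.9 and 32.9 in the controls, 15.4, 11.8 and 16.8 after Llgl1/2 siRNA and 20.5, 13.7 and 18.5 FPKM after Yap siRNA. Igfbp4 was lower (-0.79 ± 0.13 and -0.40 ± 0.13), and Igfbp7, the other higher gene of the list, had 0.39 ± 0.09 and 0.20 ± 0.09 and was named after its values were seen. Of 17 other growth factor and receptor genes 3 were higher (17.6%) and 4 lower (23.5%), counts near the shares of all genes. Fgf1, a ligand made by heart muscle, had 17.3, 21.8 and 29.5, then 49.5, 47.6 and 47.97, then 40.9, 53.3 and 44.8 FPKM, and Fgfr2, a receptor, 11.98, 10.8 and 10.3, then 6.14, 7.66 and 7.65, then 1.59, 1.49 and 1.18. Fgf9 differed by 0.73 ± 0.15 and 1.15 ± 0.15, and Tgfa, a ligand of the EGF receptor, by -0.99 ± 0.12 and -0.84 ± 0.12.

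Contractile genes were more often higher. Of 24 sarcomere genes 12 were higher, 1 lower and 11 neither, with a median of 0.41. For single knockdowns, limma called 15 higher and 1 lower after Llgl1/2 siRNA, and 15 higher and 5 lower after Yap siRNA. No share of all genes is given for these calls. Myl7, the atrial regulatory light chain, stood at 59.3, 63.8 and 81.7 FPKM in the controls, 120.1, 131 and 124 after Llgl1/2 siRNA and 229, 270.0 and 357 after Yap siRNA. Tnni3, the adult cardiac form of the inhibitory troponin subunit, had 1734, 1695 and 1852, then 2511, 2389 and 2409.8, then 4148, 4715 and 3483 FPKM. Tnni1, its fetal counterpart and named after its values were seen, was also higher, with 428, 419 and 486, then 588, 578 and 608, then 793, 785 and 829.6. In all 3 genes the Yap libraries lie above the Llgl1/2 libraries, and for Myl7 and Tnni3 the direct differences were 1.16 ± 0.14 (SE; adjusted p = 4.9e-05) and 0.75 ± 0.10 (SE; adjusted p = 4.1e-05). Myom2, an M-band gene, had 0.82 ± 0.10 and 1.17 ± 0.10, and Myl4, the atrial essential light chain, 0.67 ± 0.12 and 0.75 ± 0.12. Myh7, the slow myosin heavy chain that the fetal ventricle uses, was the member on the lower side, with 2079.5, 2353 and 2484, then 1850.1, 1800.1 and 1611, then 814, 947 and 854 FPKM.

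Levels were highest among contractile genes too. The higher genes with the highest mean level were Myl2 and Myl3, the ventricular light chains, Cox6a2, a heart and muscle form of a cytochrome oxidase subunit, and Tnni3. Myl2 stood at 3647, 3559.9 and 4477 FPKM in the controls, 6133, 5104 and 5045 after Llgl1/2 siRNA and 5601, 5737 and 5929 after Yap siRNA, and Cox6a2 at 2589, 2605 and 2834, 4518, 3903 and 3711 and 4537, 3435 and 4515. Under quantile normalization, Myl2, Myl3 and Cox6a2 no longer met the rule. Among lower genes the highest were Ankrd1, a stress-induced YAP target of muscle, Eef1a1, a translation elongation factor, Nppb, which encodes the natriuretic peptide BNP, and Ppia, a prolyl isomerase. Nppb had 2908, 2759 and 2848, then 1867, 1512 and 1448, then 1215, 1008 and 1113 FPKM, whereas Ankrd1 differed by -0.22 ± 0.08 and -0.27 ± 0.08 and did not meet the rule under median-ratio scaling. Of 13 fetal and stress genes of the myocyte 3 were lower (Nppb, Myh7 and Ankrd1), or 23.1% beside 14.8% of all genes at this level. The 1 that was higher (7.7%, beside 13.6%) was Xirp2, an actin-binding gene of the intercalated disc (0.72 ± 0.17 and 0.98 ± 0.17).

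Calcium handling, ion channel and cardiac transcription factor genes were higher in 10 of 23 cases each and lower in 0, with medians of 0.53 and 0.35. Cacna1h, another T-type channel gene, stood at 7.07, 8.02 and 9.23 FPKM in the controls, 16.2, 18.9 and 17.6 after Llgl1/2 siRNA and 15.5, 16.2 and 20.1 after Yap siRNA. Kcnh2, a potassium channel of repolarization, had 17.4, 17.8 and 21.2, then 27.6, 29.6 and 30.7, then 43.3, 38.1 and 48.9 FPKM. Cacna1h overlapped between the knockdowns, and Kcnh2 was higher after Yap siRNA (0.55 ± 0.10 (SE; adjusted p = 0.00058)). Ryr2, the calcium release channel of the sarcoplasmic reticulum, had 0.62 ± 0.13 and 0.70 ± 0.13. Tbx5, a transcription factor of heart formation, had 5.39, 6.11 and 8.0, then 12.4, 12.6 and 13.3, then 11.7, 11.6 and 13.96 FPKM, and Irx3, an Iroquois factor of ventricular conduction, 21.5, 22.4 and 22.1, then 34.1, 32.2 and 38.9, then 73.6, 84.3 and 77.7. Irx3 was higher after Yap siRNA by 1.14 ± 0.08 (SE; adjusted p = 2.3e-07), while Irx4 (-0.09 ± 0.11 (SE; adjusted p = 0.54)) and Irx5 (0.19 ± 0.13 (SE; adjusted p = 0.25)) did not differ detectably. The summed cardiomyocyte markers given above moved in the same direction, with control and Llgl1/2 ranges that overlap. Of these 9 markers 4 were higher, 1 (Myh7) was lower and 4 were neither. For single knockdowns, limma called 4 higher and 1 lower after Llgl1/2 siRNA, and 6 higher and 3 lower after Yap siRNA. No share of all genes is given for these calls. Their medians were 0.11 after Llgl1/2 siRNA and 0.57 after Yap siRNA, and their part in these differences was not tested.

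**Figure D4:**
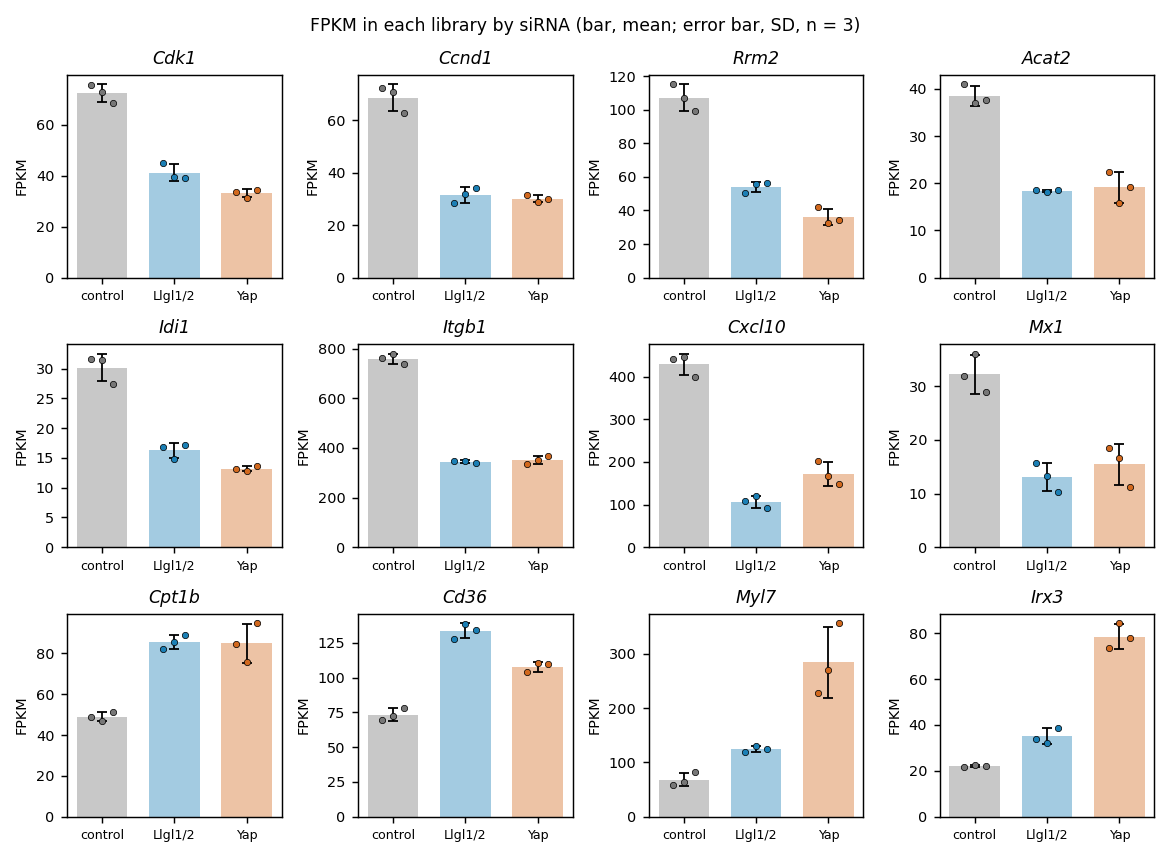
FPKM in each library for 12 members (bars, means; error bars, SD; n = 3 libraries a group; dots, libraries). The y axes start at 0; cell cycle, sterol, integrin and inflammatory genes are lower in both knockdown groups, Cpt1b, Cd36, Myl7 and Irx3 are higher, and only Rrm2, Cdk1, Idi1, Cxcl10, Cd36, Myl7 and Irx3 among the 12 show no overlap between the knockdowns.

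Fatty acid genes gave the largest share on the higher side. Of 28 uptake and oxidation genes 16 were higher, 1 lower and 11 neither, with a median of 0.42. Cpt1b, the muscle enzyme that admits fatty acids to mitochondria, stood at 48.6, 46.96 and 51.5 FPKM in the controls, 82.3, 85.6 and 88.9 after Llgl1/2 siRNA and 84.3, 75.8 and 94.7 after Yap siRNA. Cd36, a fatty acid transporter, had 69.5, 72.2 and 78.4, then 128, 139 and 135, then 104, 110.4 and 109.5 FPKM, and Acsl1, which activates fatty acids with CoA, 38.1, 34.8 and 41.2, then 46.7, 57.6 and 64.1, then 89.8, 102 and 109.8. Cpt1b showed no detectable direct difference (-0.02 ± 0.08 (SE; adjusted p = 0.88)), Cd36 was higher after Llgl1/2 siRNA and Acsl1 after Yap siRNA (0.84 ± 0.11 (SE; adjusted p = 4.6e-05)). Angptl4, an inhibitor of lipoprotein lipase, was the lower one, with 43.3, 41.9 and 31.7, then 7.7, 7.84 and 7.79, then 21.9, 18.3 and 17.1 FPKM. Of 29 respiratory chain and ATP synthase genes 10 were higher (34.5%, beside 13.6% of all genes at this level) and 0 lower, with a median of 0.18. Ndufb3 and Ndufa2, of complex I, had 0.50 ± 0.11 and 0.37 ± 0.07 after Llgl1/2 siRNA and 1.10 ± 0.11 and 0.53 ± 0.07 after Yap siRNA, and Cox5b and Ndufv1 had 0.34 to 0.44 in each. Cox5b and Ndufv1 did not meet the rule under quantile normalization.

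Glycolysis genes went both ways. Of 23 genes 6 were higher (26.1%, beside 13.6% of all genes at this level) and 8 lower (34.8%, beside 14.8%), with a median of 0.02. Slc16a1, a lactate and pyruvate transporter, stood at 37.98, 38.04 and 40.5 FPKM in the controls, 77.5, 79.8 and 74.5 after Llgl1/2 siRNA and 58.2, 58.2 and 65.4 after Yap siRNA, and Aldoc, an aldolase, at 11.3, 12.6 and 12.2, 16.8, 19.5 and 17.8 and 32.2, 34.7 and 29.3. Hk2, the insulin-responsive hexokinase, was lower, with 13.97, 13.7 and 13.4, then 7.86, 7.8 and 8.25, then 7.12, 8.03 and 8.28 FPKM. Pgam2, the muscle phosphoglycerate mutase, had 0.58 ± 0.11 and 0.49 ± 0.11, while its widely expressed relative Pgam1 was on the lower side. The muscle forms Pfkm and Eno3 were likewise higher and the common forms Pfkl and Eno1 lower, and these 5 genes were named after their values were seen.

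In the unfolded protein and integrated stress response list 11 of 28 genes were lower (39.3%, beside 14.8% of all genes at this level) and 2 higher (7.1%, beside 13.6%), with a median of -0.10. The lower ones included all 3 enzymes of serine synthesis. Phgdh, the first of them, stood at 55.6, 50.4 and 50.1 FPKM in the controls, 30.1, 26.9 and 31.4 after Llgl1/2 siRNA and 28.9, 26.1 and 32.4 after Yap siRNA. Psat1 and Psph, which follow it, had -0.95 ± 0.12 and -0.52 ± 0.09 after Llgl1/2 siRNA and -0.74 ± 0.12 and -0.59 ± 0.09 after Yap siRNA, and Sesn2 had -0.86 ± 0.13 and -0.51 ± 0.13. The higher ones, named after their values were seen, were Hyou1 and Herpud1, of the endoplasmic reticulum. Of 23 antioxidant genes 5 were higher (21.7%, beside 13.6% of all genes at this level) and 1 lower (4.3%, beside 14.8%). Gsta4, a glutathione transferase that detoxifies lipid aldehydes, had 38.7, 35.1 and 37.99, then 102, 87.8 and 89.5, then 74.6, 90.9 and 71.9 FPKM, and Hmox1 (heme oxygenase) and Sod1 (superoxide dismutase) had 0.51 ± 0.10 and 0.30 ± 0.08, then 0.49 ± 0.10 and 0.61 ± 0.08.

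The difference between the Yap and Llgl1/2 means uses no control value, although its SE and p rest on a spread fitted over all 9 libraries, controls included. The rule used the same 6 knockdown values, each only against the controls. Among the 1138 higher genes it passed 390 (34.3%), and among the 1236 lower ones 510 (41.3%), at an adjusted p of 0.05, beside 4206 of all 8351 genes (50.4%), of which 1689 were higher (20.2%) and 2517 lower (30.1%) after Yap siRNA. The rule keeps genes that lie on the same side of the controls, which favours genes alike in both knockdowns, so the smaller shares are no result of their own. Of the 390, 292 were higher after Yap siRNA, that is farther from the control, and of the 510, 319 were lower after Yap siRNA. Over all members this makes 483 higher and 417 lower. The split depends on scaling: median-ratio scaling, which moves the median direct difference of all genes from -0.08 to 0.00, gave 668 and 286, with 412 of 464 passing genes on the higher side but 234 of 490 on the lower side farther from the control after Yap siRNA.

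The steepest direct differences among members were these. Mt2A, a metallothionein gene, stood at 308, 319.7 and 235 FPKM in the controls, 60.7, 49.4 and 57.2 after Llgl1/2 siRNA and 209, 197 and 185 after Yap siRNA, a direct difference of 1.81 ± 0.11 (SE; adjusted p = 5e-08). Mb, the oxygen-binding protein myoglobin, had 115, 122 and 141, then 157, 158 and 184, then 543, 515 and 535 FPKM (1.67 ± 0.09 (SE; adjusted p = 1.2e-08)). Slc1a3, a glutamate transporter gene, had 40.2, 36.7 and 38.1, then 29.1, 30.7 and 33.9, then 8.25, 7.52 and 7.78 FPKM (-1.86 ± 0.08 (SE; adjusted p = 3e-09)). In each, 1 knockdown lies close to the controls and the other far from them, so that they met the rule by a step of very unequal size. Slpi (a protease inhibitor) and Cxcl1 (a neutrophil chemokine) followed Mt2A in being lower after Llgl1/2 siRNA, by 1.59 ± 0.14 (SE; adjusted p = 1.6e-06) and 1.44 ± 0.14 (SE; adjusted p = 6.4e-06). Acta2 (-1.48 ± 0.08 (SE; adjusted p = 1.6e-08)), Fgfr2 (-1.75 ± 0.12 (SE; adjusted p = 1.4e-07)), Fads3, a relative of the fatty acid desaturases (-1.86 ± 0.13 (SE; adjusted p = 4.2e-07)), Chrna1, a subunit of the muscle acetylcholine receptor (-1.66 ± 0.19 (SE; adjusted p = 2.3e-05)), and Dok5, a docking protein of receptor kinases (-1.54 ± 0.18 (SE; adjusted p = 2e-05)), were lower after Yap siRNA. Cxcl1 did not meet the rule under median-ratio scaling. Rn5-8s, a ribosomal RNA gene in libraries made from poly-A RNA, had 8.36, 8.52 and 11.4, then 18.9, 14.5 and 15.4, then 72.0, 69.7 and 43.7 FPKM, and the part of leftover ribosomal RNA in other differences was not tested.

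**Figure D5:**
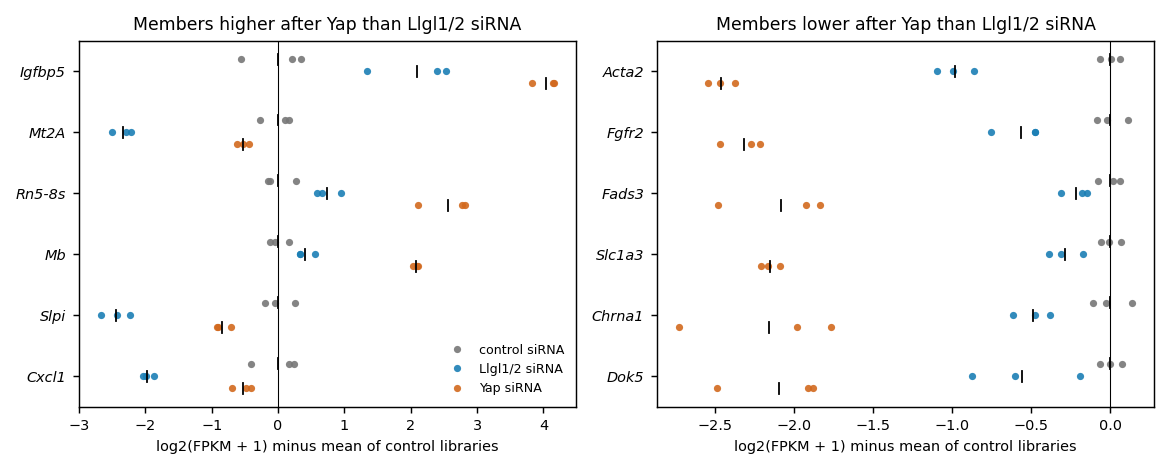
Rows are the 6 members with the largest direct difference in each direction; each dot is a library, placed by log2(FPKM + 1) minus the mean of the control libraries (x axis), with black ticks at group means of 3. For the genes to the left the Yap libraries (orange) lie to the right of the Llgl1/2 libraries (blue), and for those to the right they lie to the left, with no overlap between the knockdowns; Acta2 has group means of -0.98 and -2.46.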

How the data were processed

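The authors' deposited table gives FPKM for each gene and library, rounded to 2 decimals. Per the submitters' processing notes the rn6 genome, HISAT and Bowtie2 were used, with no version or role given, and the counting tool and annotation are not given in the sources used here. Libraries were made by a low-input poly-A BGISEQ-500 protocol, per the labels' protocols. The table holds no counts, so absolute depth is unknown. From the steps of low values, 10 to 28 genes a library, depth relative to control library 1 was 1.00 in the other controls, 0.90 to 0.91 after Llgl1/2 siRNA and 0.97 to 1.00 after Yap siRNA, which is rough. A further value column equals Llgl1/2 library 2 in every row and maps to no sample, so 1 column was not used. Of 31 symbols that read as dates or were missing, 29 were repaired by gene ID from a GRCr8 gene table, which held 14516 of the IDs.

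The rule was applied to FPKM as deposited. Tests used limma 3.58.1 (R 4.3.3; moderated variances with a trend on level, robust) on log2(FPKM + 1), which understates changes of low genes. The filter was 1 FPKM or more in 3 libraries or more, which kept 10789 genes, and 1 fit of the 9 libraries with a mean per group left 6 residual degrees of freedom. The Benjamini-Hochberg adjustment ran over those genes, and calls were made at an adjusted p of 0.05. Apart from the smaller difference used to count and rank members, log2 differences and their SE come from this fit. The median SE was 0.09 for both knockdowns against control and 0.11 for the direct comparison. That smaller difference was taken from the group means, as log2(mean FPKM + 1) against the control. All 2374 members were among the tested genes. The code was tested on simulated data. Other steps ran in Python 3.11.15 with numpy 2.4.6 and pandas 2.3.3, and figures in matplotlib 3.10.9. Promoter windows came from RefSeq (GRCr8), a different build from rn6, and were matched by gene.

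The labels number replicates 1 to 3 in each group. Deviations from group means correlated between same-numbered Yap and Llgl1/2 libraries at 0.236, 0.119 and 0.119. Differently numbered ones correlated at -0.135 to 0.009, so the numbers may pair these libraries. Deviations sum to 0 in each group, so positive values for same-numbered libraries go with lower ones for the others. With the controls, same-numbered libraries correlated at 0.01 to 0.171 and differently numbered ones at -0.179 to 0.069. A weak pairing with the controls is therefore possible and was not settled. The values printed come from the fit without replicate number. Those with it as a block are given where they change a call.

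The members and the 32 gene and marker lists were chosen with earlier results of these data known. Genes named are the targets; the 12 members in each direction with the largest smaller difference; up to 4 members of a list by that measure, or 1 gene of a list with none; the 6 with the largest direct difference each way; the 4 highest in level each way; and 2 on either side of the level limit. Some genes that this rule selects are not reported here. Genes named beyond this are marked as chosen after their values were seen. The alternatives were another level limit, a margin of 25%, median-ratio scaling, quantile normalization, a pseudocount of 0.1, no filter, an adjusted p of 0.01, replicate number as a block, and leaving out each library.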

Additional observations from a re-analysis of the deposited data

How the results depend on the processing

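With a margin of at least 25% between the nearest knockdown and control values, 260 genes were higher and 213 lower. A mean limit of 1 or 10 FPKM, median-ratio scaling and quantile normalization kept both counts of members within 1.5 times, at 968 to 1369 higher and 981 to 1463 lower. Leaving out each library gave 1193 to 1435 higher and 1304 to 1733 lower members, 1791 to 2383 higher and 1865 to 2546 lower genes for the mean of both knockdowns in limma (2330 and 2517 as reported), and 397 to 486 and 317 to 418 members in the direct comparison. At an adjusted p of 0.01 the direct comparison gave 335 and 262. With replicate number as a block, limma called 2484 genes higher and 2721 lower for both knockdowns and 524 and 448 members in the direct comparison (54.6% of all genes at this level passed, beside 50.4%), and the block changed no call of the 132 named genes for both knockdowns or of the 42 direct differences printed. Counts in the gene lists that moved by over 1.5 times were small ones. Median-ratio scaling gave 1 higher sterol gene, 0 higher matrix genes, 2 lower RNA interference genes and 1 higher unfolded protein gene. A mean limit of 1 FPKM gave 3 lower p53-list genes, 2 higher smooth muscle markers and 1 higher epicardial marker. The cause of these moves was not tested. The balance of direct calls turned under median-ratio scaling among the lower members, from 191 higher and 319 lower after Yap siRNA to 256 and 234, among all genes at this level, from 1689 and 2517 to 2158 and 1946, and in the unfolded protein list, from 2 and 3 to 3 and 2. Under quantile normalization it turned in the calcium and ion channel list, from 3 and 2 to 2 and 3. Among the 132 named genes, leaving out a library ended the limma call for both knockdowns in 7 (Ankrd1, Des, Pard3, Ppia, Slamf9, Slc39a11 and Stk11, adjusted p of 0.052 to 0.20) and made 1 (Hba1, 0.034). Of the 42 direct differences, those that changed sign were all near 0 and passed no test. Median-ratio scaling put Actb at 0.048, Ccl4 at 0.058, Ccnd1 at 0.017 and Cpt1b at 0.064, and quantile normalization put Ccl4 at 0.088 and Itgb1 at -0.0081. Leaving out a library gave -0.10 to 0.10 for Actb, -0.23 to 0.14 for Ccl4, -0.097 to 0.062 for Cpt1b and -0.0055 to 0.057 for Itgb1. The direct calls of Llgl2 and Idi1 that changed stand beside their values above. Absolute depth is unknown, and values of a few FPKM in short genes rest on few reads.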

Other observations

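Of the marker lists that hold no member, the epicardial sum moved in opposite directions, in large part through Krt18. The 7 epicardial genes in the table summed to 26.6 to 35.5 FPKM in the controls, 45.3 to 56.8 after Llgl1/2 siRNA and 12.4 to 18.1 after Yap siRNA. Only 2 of the 7 had a mean of 5 FPKM or more, so the sums do not describe the list as a whole. Krt18, a simple epithelial keratin gene, stood at 13.4, 13.5 and 13.4 FPKM in the controls, 29.1, 26.5 and 28.8 after Llgl1/2 siRNA and 2.37, 1.97 and 0.79 after Yap siRNA, with no overlap between any groups. Hba1, an erythroid marker, had 73.3, 93.2 and 82.5, then 91.9, 93.5 and 56.4, then 72.8, 32.8 and 45.6 FPKM, with overlapping groups. Several heart genes that the rule leaves out were likewise apart from the controls in 1 knockdown or in opposite directions, and were named after their values were seen. Acta1, skeletal alpha-actin, had 510.5, 545 and 549 FPKM in the controls, 702, 568 and 530.4 after Llgl1/2 siRNA and 133, 114 and 147 after Yap siRNA. Gata4, a cardiac transcription factor gene, had 127, 126 and 139, then 185, 187 and 187, then 109, 91.9 and 118 FPKM, above the controls in the first and below them in the second.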
